A study of Mus musculus with 20 samples.

Results

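Separate single changes to the mouse liver were set side by side: loss of Pck1 in the liver on a chow diet (KO chow) and a NASH diet in wild-type mice (WT NASH). NASH is nonalcoholic steatohepatitis. The libraries were chosen by their labels, 5 KO chow and 5 WT NASH libraries of 20 in the series, and no measured value entered the choice. Livers of KO chow mice carried the liver-specific Pck1 knockout, labelled Pck1-cKO, and those of WT NASH mice were labelled WT. Both diets ran for 24 weeks and all mice were 31 to 33 weeks old. 5 WT chow libraries of the same age served as a reference. The 5 KO NASH libraries entered the gene filter, the scaling and the estimate of the spread, but neither side of a comparison. Each library was numbered as a separate mouse. The Cre driver, the deleted exons, the composition of the NASH diet, the sex of the mice, and the feeding state and hour at which livers were taken are not stated in the labels.

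Pck1 encodes the cytosolic phosphoenolpyruvate carboxykinase, which turns oxaloacetate from the tricarboxylic acid (TCA) cycle into phosphoenolpyruvate, an early step of gluconeogenesis. In the fed liver, insulin and sugars raise genes of glucose use and fatty acid synthesis through SREBP1c and ChREBP, and SREBP2 raises the genes of sterol synthesis when sterols are low. During fasting, PPARalpha raises genes of fatty acid uptake, storage in droplets and oxidation. NASH combines fat storage with inflammation and scarring.

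Library totals were 16688365 to 20601955 counts in KO chow and 9958935 to 16193657 in WT NASH, so that 1 CPM (counts scaled by TMM-adjusted library size) stood for about 6.80 to 24.9 reads. Counts of 4 Y-linked genes read 3 of the 5 KO chow libraries (replicates 1, 2 and 4) as male and 1 of the 5 WT NASH libraries (replicate 4); all 5 WT chow libraries read as male. 3 of the 10 libraries (KO chow replicates 4 and 5 and WT NASH replicate 4) stood apart in their slope of log2 CPM on log2 gene length, from -0.283 to -0.254 against 0.00985 to 0.189 in the other 7. Their share of counts from mitochondrial genes was 11.9% to 15.3% against 6.04% to 12.04%. Sex was unbalanced between the groups. Counts with sex as a term, without these 3 libraries or without 1 library are given beside some of the lists. Smaller moves are not all given, so a list without such a count was not necessarily unmoved.

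Pck1 was lower in KO chow than in WT NASH. Its level was 523, 458, 861, 762 and 528 CPM in KO chow replicates 1 to 5 and 2543, 1888, 2975, 1701 and 2344 CPM in WT NASH. All KO chow libraries were below all WT NASH libraries. On the log2 scale KO chow minus WT NASH was -1.87 (SE 0.28, adjusted p = 0.00014 by edgeR), and Pck1 RNA was not absent from the knockout livers. Against WT chow, at a mean of 3573 CPM, Pck1 was lower by 2.51 on the log2 scale in KO chow (edgeR adjusted p = 0.00011), and WT NASH differed from WT chow by -0.64, which did not pass the test (adjusted p = 0.18). In the males alone, where WT NASH is the single library of replicate 4, the value was -1.52 and did not pass (edgeR adjusted p = 0.072).

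Gene loss and diet left livers that differed in 2500 of 14440 genes tested (17.3%) by edgeR's quasi-likelihood test at an adjusted p under 0.05. KO chow was higher for 1364 genes (9.45%) and lower for 1136 (7.87%). These shares are the background for the list and marker counts of this fit that follow. Counts from other fits have another background. Limma voom called 2501 genes higher and 2458 lower of 14440, and DESeq2 1718 and 1441 of 14421. With sex as a term 989 were higher and 868 lower, and with sex and length slope 1907 and 2332. Without the 3 libraries of negative slope 1358 were higher and 951 lower of 14936, and within females 389 and 259 of 15205. The 5 KO chow values and the 5 WT NASH values did not overlap for 1740 genes (12%), 1538 of which passed the test. With sex as a term 1857 genes passed (12.9%), 1772 of them among the 2500, and with sex and length slope 4239 passed (29.4%), 2391 of them among the 2500. Without the 3 libraries of negative slope 2309 passed, 1789 of them among the 2500. The median log2 fold change of all genes was -0.02, and 570 genes passed with a difference of at least 4-fold.

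Opposite blocks of named genes stood at the ends of this list, each gene having passed with and without sex and slope as terms. Ranges apart between KO chow and WT NASH were also a condition for naming them. The lack of overlap given for genes at both ends was therefore set in advance. The largest difference was that of Cidec, a lipid droplet protein that promotes droplet growth, at 370, 442, 99.9, 211 and 352 CPM against 0.904, 0.534, 0.787, 0.588 and 1.61 CPM in WT NASH. Every KO chow library exceeded every WT NASH library, the difference being 8.34 on the log2 scale (SE 0.60, adjusted p = 5.8e-08 by edgeR). The leptin receptor gene Lepr was at 1124, 795, 459, 515 and 431 CPM against 13.1, 16.4, 9.69, 5.44 and 26 CPM (5.55, SE 0.78), again with no overlap. Acot2, a mitochondrial acyl-CoA thioesterase, was at 143, 150, 30.8, 144 and 437 CPM against 6.59, 4.45, 3.45, 0.294 and 3.62 CPM (5.58, SE 0.77). The other genes at this end were Cgref1 (7.35), Pnldc1 (6.26), Ly6d (5.81), the calsyntenin gene Clstn3 (5.48), the keratin gene Krt23 (5.47), the fatty acid omega-hydroxylase gene Cyp4a31 (5.25) and Ppp1r3g (5.14), which targets protein phosphatase 1 to glycogen. Ly6d leaned on KO chow replicate 5, at 697 CPM against 45.4 to 85.2 in the other 4.

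Ppp1r3b, another glycogen-targeting subunit, lay at the opposite end to Ppp1r3g. It was at 16.6, 18.3, 34.4, 9 and 35.9 CPM in KO chow and 493, 395, 513, 208 and 475 CPM in WT NASH. All KO chow libraries were below all WT NASH libraries, at -4.19 on the log2 scale (SE 0.47, adjusted p = 8.6e-06 by edgeR). Slc22a7, an organic anion transporter, was at 0.486 to 2.64 CPM in KO chow and 29.9 to 61.5 CPM in WT NASH (-4.75, SE 0.42). The interferon-inducible GTPase gene Gbp10 was at 0.483 to 2.37 CPM against 25.6 to 40.8 CPM (-4.50, SE 0.44).

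5 further genes of the lower end were pulled by WT NASH replicate 4, the only male of its group. Serpina12, the adipokine vaspin, was at 0.29 to 2.25 CPM in KO chow, 290 CPM in that library and 13.5 to 36.4 CPM in the other 4 (-6.63, SE 1.08). Selenbp2 was at 1028 CPM there and 11.9 to 31.6 CPM in the others (-6.20), and Enho, the adropin gene, at 118 against 17.7 to 38.7 CPM (-5.01). Cyp2c70, which makes mouse muricholic acids, was at 3650 against 368 to 883 CPM (-5.002), and Slc10a2, a bile acid uptake transporter, at 496 against 42.7 to 93.1 CPM (-4.89). The values of all 5 were lower in KO chow with no overlap, with or without this library, and within females they were -3.99, -3.32, -3.66, -3.22 and -2.84, of which the last, Slc10a2, did not pass (edgeR adjusted p = 0.06). Cyp2c70, Selenbp2, Acot2 and Cyp4a31 have close paralogs, and the counting program that could split their reads is not stated in the labels.

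**Figure D1:**
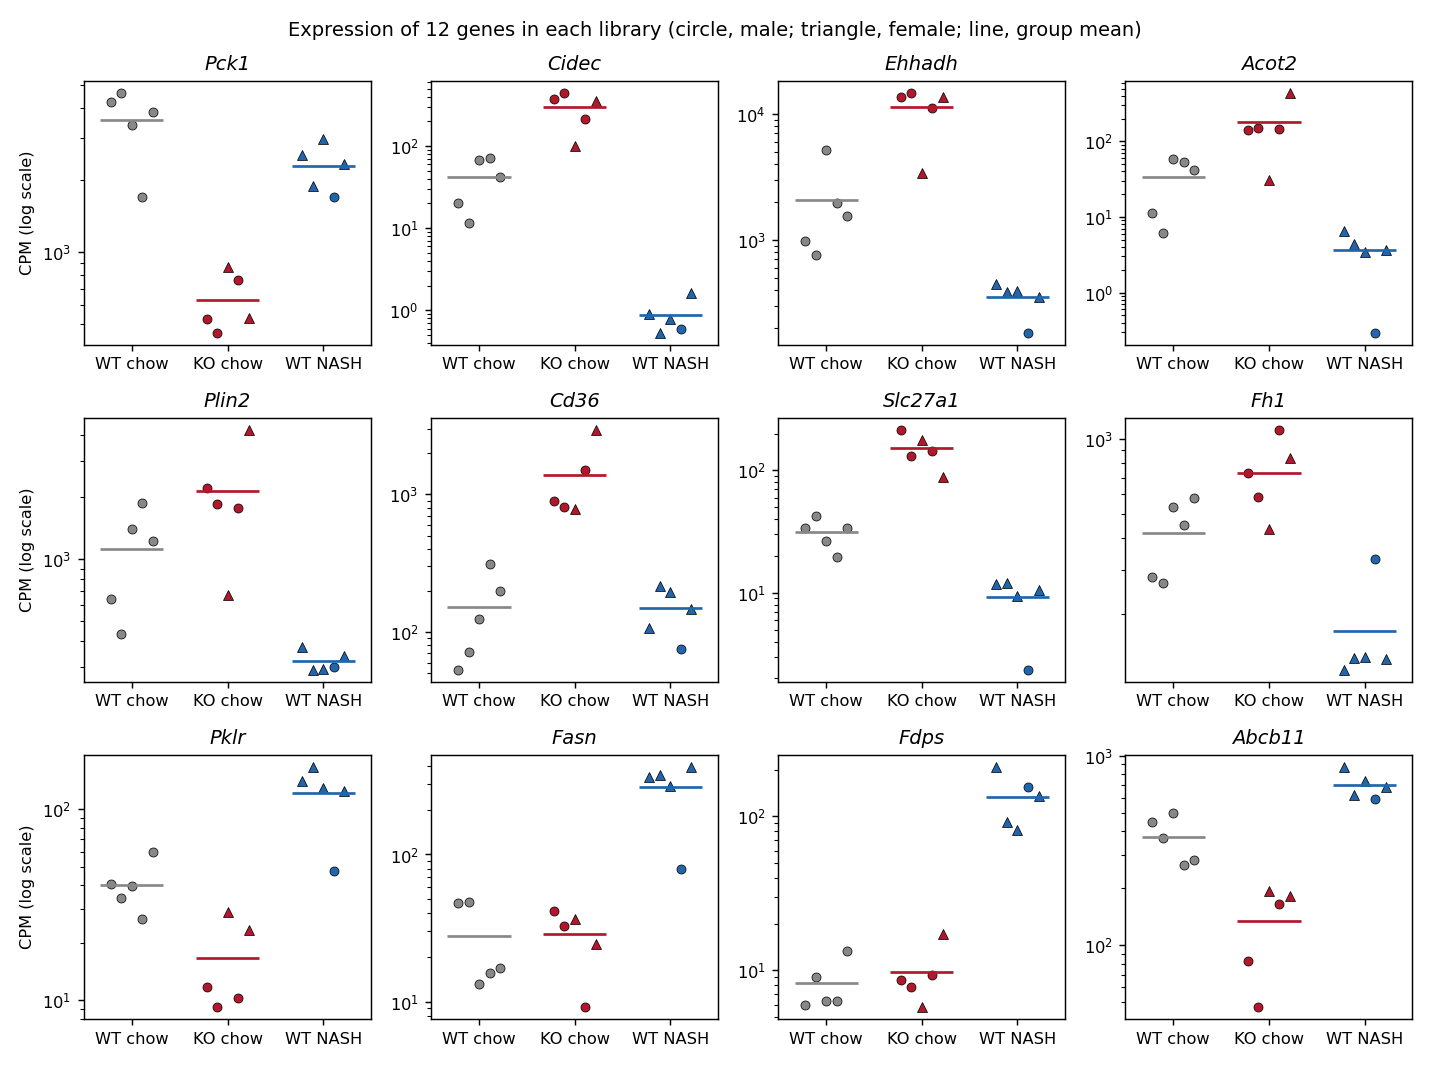
CPM of 12 genes on log axes for WT chow, KO chow and WT NASH, with 5 libraries a group; circles are libraries read as male, triangles female, and lines group means. The 5 KO chow values lie apart from the 5 WT NASH values in each panel, above for Cidec through Fh1 and below for Pck1, Pklr, Fasn, Fdps and Abcb11. These 12 were picked from the named genes with results known, whereas 12% of all genes had ranges apart.

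Genes that hold fat in droplets were higher after gene loss than after diet. Of 14 lipid droplet genes tested, 8 were higher in KO chow and 0 lower, with a median log2 fold change of 2.04 (9.45% of all genes were higher, and the median of all genes was -0.02). Plin2, which coats droplets, was at 2217, 1859, 671, 1774 and 4227 CPM in KO chow and 373, 291, 292, 301 and 339 CPM in WT NASH. The groups did not overlap and differed by 2.75 on the log2 scale (SE 0.42, adjusted p = 0.00015 by edgeR). Hsd17b11, a droplet-associated dehydrogenase, was at 702 to 1599 CPM against 118 to 144 (2.97, SE 0.34). Fitm2, which helps droplets form at the endoplasmic reticulum, was at 79.2 to 222 CPM against 9.86 to 27 CPM (2.67, SE 0.31). Cidea and Plin1 were too low to be tested, with at most 63 and 7 reads in any of the 10 libraries.

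Fatty acid uptake moved the same way, with 5 of 11 genes higher in KO chow, 0 lower and a median of 1.07. Only 3 passed when sex was a term, and also 3 without KO chow replicate 1 or 2. Slc27a1, a fatty acid transport protein, was at 213, 132, 177, 145 and 88.8 CPM in KO chow and 11.9, 12, 9.44, 2.35 and 10.6 CPM in WT NASH (4.02, SE 0.35; edgeR adjusted p = 5.9e-07). The fatty acid translocase gene Cd36 was at 898, 813, 781, 1501 and 2924 CPM against 108, 216, 196, 74.7 and 147 CPM (3.22, SE 0.48). Neither gene's groups overlapped. Slc27a2, which also activates very long fatty acids, was at 1716 to 4081 CPM against 802 to 1499 (1.27, SE 0.25).

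Fatty acid oxidation and ketogenesis showed the highest count of higher genes of any list: 20 of 24 were higher in KO chow, 0 were lower, and 19 had ranges apart. The median was 1.39, and 17 passed without the 3 libraries of negative slope. Ehhadh, the peroxisomal bifunctional enzyme, was at 13638, 14680, 3399, 11184 and 13635 CPM in KO chow and 444, 387, 391, 183 and 351 CPM in WT NASH. KO chow replicate 3 was the lowest of its group and still above every WT NASH library (5.01, SE 0.54; edgeR adjusted p = 5.8e-06). The omega-hydroxylase gene Cyp4a14 was at 10344 to 17670 CPM against 5 to 1904 CPM, the 5 CPM being WT NASH replicate 4 (4.05, SE 0.79). Acot1, a cytosolic thioesterase, was at 111 to 503 against 4.41 to 48.7 CPM (3.67, SE 0.63). Ppara itself did not pass, at 0.26 (adjusted p = 0.65), and neither did Acadvl, Bdh1 and Angptl4; these 4 names were added after their values were seen. Summed over the list, KO chow libraries held 34373 to 60562 CPM, WT NASH 3772 to 12492 and WT chow 21048 to 41866.

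TCA cycle genes followed: 8 of 16 were higher in KO chow, 0 lower, with a median of 0.95. Fh1, fumarate hydratase, was at 730, 584, 436, 1085 and 836 CPM in KO chow and 119, 133, 134, 331 and 132 CPM in WT NASH, with no overlap (2.11, SE 0.33; edgeR adjusted p = 0.0002). WT NASH replicate 4 was the highest of its group. Idh3a, a subunit of isocitrate dehydrogenase, differed by 1.99 (SE 0.35), and the dicarboxylate carrier gene Slc25a10 by 1.38 (SE 0.23).

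Triglyceride synthesis and export was mixed, with 8 of 14 genes higher in KO chow, 2 lower and a median of 0.77. With sex as a term 6 were higher and 1 lower. Dgat1, which makes the last step of triglyceride synthesis, was at 37.3 to 66.7 CPM in KO chow and 11.9 to 17.4 in WT NASH (1.75, SE 0.17; edgeR adjusted p = 1.9e-06). Apoa4, an apolipoprotein of triglyceride-rich particles, was at 2610 to 6245 CPM against 272 to 1327 (2.74, SE 0.44), and Mogat1 at 2.32 to 9.66 against 0.258 to 0.593 CPM (3.44, SE 0.66). The 2 lower genes were Lpin1, a phosphatidate phosphatase, at 28.3 to 122 CPM against 223 to 700 (-2.57, SE 0.67), and Dgat2, at 154 to 297 against 216 to 486 (-1.03, SE 0.26). Dgat2 overlapped between groups and did not pass with sex as a term. Lpin1 did not pass without the 3 libraries of negative slope.

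Sugar-handling genes split by direction. In glycolysis and fructose use, 3 of 14 genes were higher in KO chow and 4 lower, with a median of 0.02. The liver pyruvate kinase gene Pklr was at 11.8, 9.21, 28.8, 10.2 and 23.3 CPM in KO chow and 140, 166, 130, 47.2 and 124 CPM in WT NASH (-2.87, SE 0.39; edgeR adjusted p = 5.5e-05), with no overlap. Gckr, a regulatory protein of sugar use, had a value of -1.53 (SE 0.30), and Tkfc, a triokinase of fructose use, had a value of -1.27 (SE 0.30) with overlapping groups. With sex as a term 1 was higher, as also without WT NASH replicate 5, KO chow replicate 1 or KO chow replicate 2.

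In gluconeogenesis, 1 of 14 genes was higher in KO chow and 2 lower, with a median of 0.47. Beside Pck1, the lower gene was Foxo1, a transcription factor that raises gluconeogenic genes, at 14.3 to 38.7 CPM against 60.6 to 111 (-1.82, SE 0.28). The higher gene was Got1, the cytosolic aspartate aminotransferase, at 208 to 1992 CPM against 252 to 389 (1.76, SE 0.54; edgeR adjusted p = 0.029). Its groups overlapped, and it did not pass with sex as a term or without any 1 of WT NASH replicates 1, 2 and 5 and KO chow replicates 1 and 2 (highest adjusted p = 0.09). The number of higher genes was 3 without the 3 libraries of negative slope, 5 without KO chow replicate 5, 2 without replicate 4 of either group, 4 by DESeq2, and 5 by limma voom or with sex and length slope as terms, with 2 lower in each.

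Fatty acid synthesis was lower after gene loss than after diet, in 8 of 15 genes, with 1 higher and a median of -0.85 (7.87% of all genes were lower). Fatty acid synthase, Fasn, was at 41.5, 32.7, 36.7, 9.22 and 24.8 CPM in KO chow and 333, 349, 291, 80 and 391 CPM in WT NASH. WT NASH replicate 4 was the lowest of its group and the groups did not overlap (-3.31, SE 0.50; edgeR adjusted p = 0.00014). Srebf1, which encodes SREBP1, was at 16.5 to 46.3 CPM against 53.7 to 156 (-2.03, SE 0.30). Acly, ATP citrate lyase, was at 49.9 to 90.7 against 152 to 207 CPM (-1.55, SE 0.20), and Mlxipl, which encodes ChREBP, at 27.2 to 62.9 against 93.6 to 192 CPM (-1.97, SE 0.33). The 1 higher gene was the elongase gene Elovl5, at 642 to 2041 CPM against 409 to 632 (1.23, SE 0.30), and without the 3 libraries of negative slope 2 were higher and 7 lower.

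Sterol synthesis and uptake was the list with the most lower genes: 20 of 23 were lower in KO chow, 0 were higher, 18 had ranges apart and the median was -1.82. With sex as a term 20 passed, and without the 3 libraries of negative slope 19. Fdps, farnesyl diphosphate synthase, was at 8.66, 7.84, 5.79, 9.29 and 17.3 CPM in KO chow and 208, 92.1, 81.8, 154 and 136 CPM in WT NASH (-3.79, SE 0.48; edgeR adjusted p = 2.7e-05). Hmgcs1, the cytosolic HMG-CoA synthase, was at 51.9, 71.4, 60, 44.9 and 66 CPM against 705, 288, 340, 249 and 405 CPM (-2.76, SE 0.39). Both were separated without overlap. Mvk and Pmvk, the kinases that follow, had values of -2.52 (SE 0.38) and -1.56 (SE 0.24). Among those that did not pass were Hsd17b7 (0.11) and Ebp (-0.13), which were named after their values were seen. KO chow libraries summed to 937 to 1281 CPM over the list, WT NASH to 2857 to 4408 and WT chow to 967 to 1213.

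Since these genes moved together, the 250 bases before the gene start are shown for the 4 of smallest p among the 15 of 23 with an entry in the RefSeq promoter table (GRCm38.p6). They lie at chr13:119690101-119690350, chr3:89454291-89454540, chr5:114444019-114444268 and chrX:72918271-72918520, all on the plus strand, 5′ to 3′, and capitals mark CCAAT or its reverse complement ATTGG.
Hmgcs1 upstream: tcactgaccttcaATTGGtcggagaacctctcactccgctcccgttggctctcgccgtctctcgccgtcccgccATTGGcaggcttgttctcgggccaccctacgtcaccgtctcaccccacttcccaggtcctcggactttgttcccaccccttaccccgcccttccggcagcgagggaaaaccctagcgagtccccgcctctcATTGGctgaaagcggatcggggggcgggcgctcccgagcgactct
Pmvk upstream: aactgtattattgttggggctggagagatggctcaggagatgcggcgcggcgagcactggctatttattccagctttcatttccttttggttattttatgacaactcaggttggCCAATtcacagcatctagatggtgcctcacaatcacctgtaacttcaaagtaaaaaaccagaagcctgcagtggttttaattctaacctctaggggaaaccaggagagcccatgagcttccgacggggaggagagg
Mvk upstream: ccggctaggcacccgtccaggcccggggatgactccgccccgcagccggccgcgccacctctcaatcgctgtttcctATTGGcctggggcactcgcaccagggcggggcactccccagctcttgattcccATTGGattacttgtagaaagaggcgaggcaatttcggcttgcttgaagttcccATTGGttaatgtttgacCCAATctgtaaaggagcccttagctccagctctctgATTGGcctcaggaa
Nsdhl upstream: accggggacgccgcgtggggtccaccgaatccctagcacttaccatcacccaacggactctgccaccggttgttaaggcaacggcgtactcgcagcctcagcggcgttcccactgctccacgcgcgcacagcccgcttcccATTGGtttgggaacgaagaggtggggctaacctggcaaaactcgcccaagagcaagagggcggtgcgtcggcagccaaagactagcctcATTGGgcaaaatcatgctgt
The CCAAT box, bound by NF-Y, was found on either strand in 3 places before Hmgcs1, 1 before Pmvk, 5 before Mvk and 2 before Nsdhl. Where a gene had more than 1 entry, an entry with this box was shown if there was any. Its presence in the sequences shown is thus partly fixed by that choice. All 15 sterol genes with an entry held it, against 37.5% of all 27025 symbols and 7 of 17 fatty acid oxidation genes. A symbol counted as holding a pattern when any of its entries did, and numbers of entries per symbol were not compared. 4 further patterns were searched on both strands in the same windows. The sterol element core CACNCCAC was in 2 of 15 sterol genes and 6.05% of all symbols, and the E-box CACGTG in 4 of 15 and 6.86%. A direct repeat of AGGTCA with 1 base between was in 0 of 17 fatty acid oxidation genes and 0.0407% of all symbols, and a looser repeat of AGGNCA in 0 of 17 and 0.4%. The patterns were chosen with the results known, are counted as letters in these windows, and say nothing of binding.

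**Figure D2:**
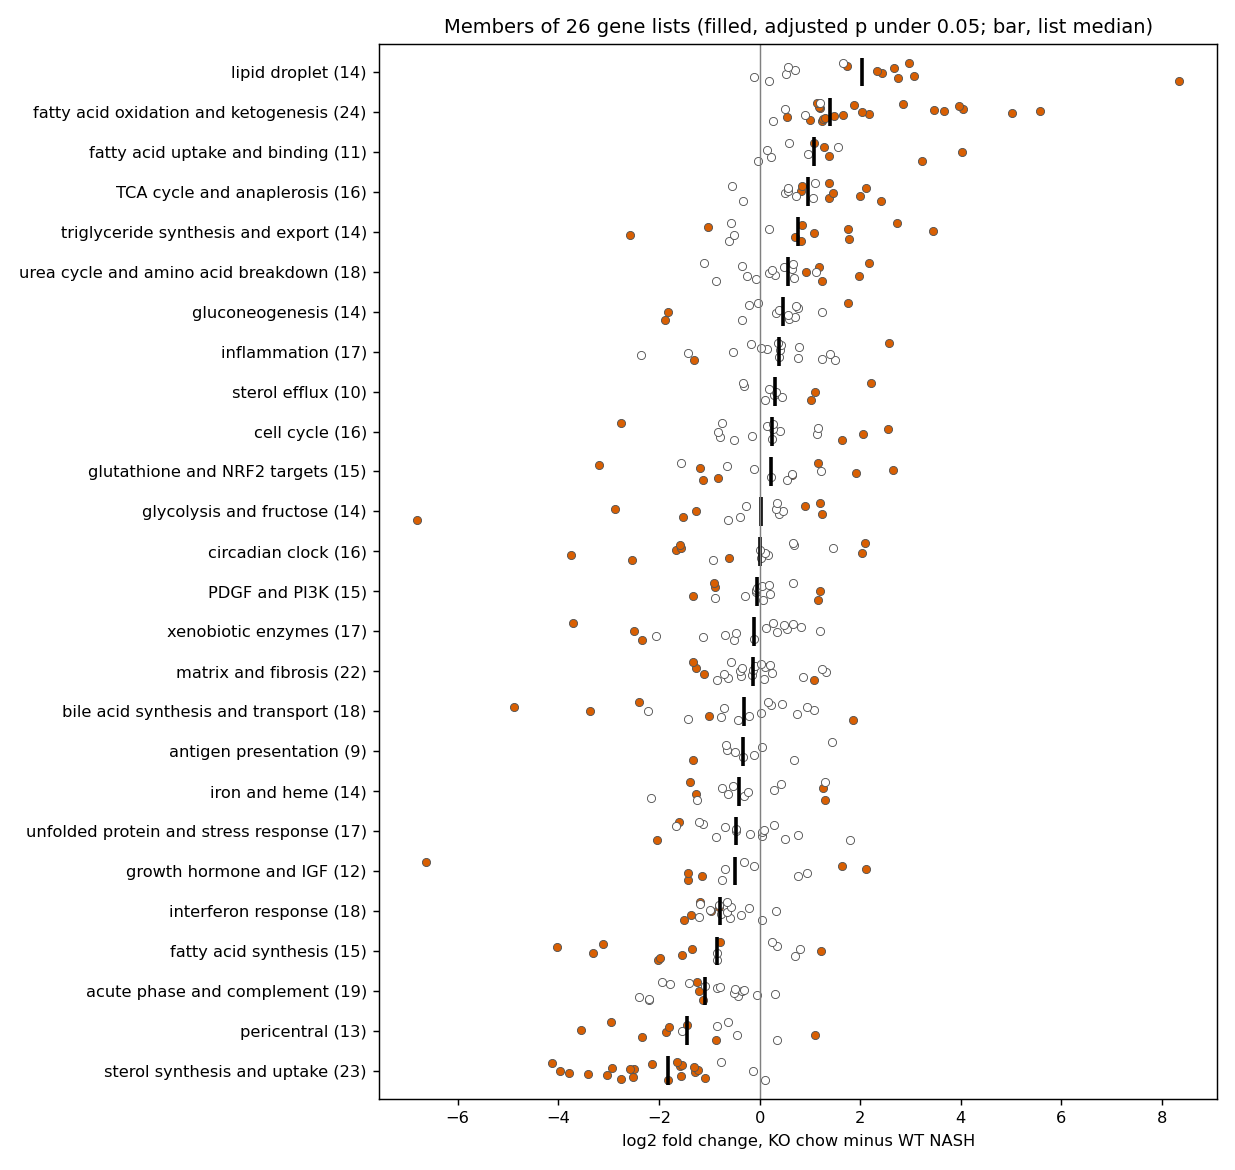
Log2 fold change (KO chow minus WT NASH, horizontal axis) of each member of 26 gene lists, ordered by list median; filled points passed edgeR's test, open points did not, and bars are medians. Lipid droplet (2.04) and fatty acid oxidation (1.39) stand at the top and sterol synthesis (-1.82) at the bottom.

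Of 18 bile acid genes 4 were lower in KO chow and 1 higher, and 13 did not pass, with a median of -0.31. The median was 0.13 within females and 0.03 without WT NASH replicate 4, and sex and length slope as terms gave 8 lower and 5 higher. Abcb11, the canalicular bile salt export pump, was at 82.1, 47.2, 192, 166 and 182 CPM in KO chow and 869, 621, 737, 594 and 688 CPM in WT NASH, with no overlap (-2.39, SE 0.32; edgeR adjusted p = 5e-05). Nr0b2, the bile acid induced repressor SHP, was at 0.563 to 9.11 CPM against 26.1 to 79.3 (-3.37, SE 0.68). Cyp27a1, a sterol 27-hydroxylase, had a value of -1.01 (SE 0.21), and the fourth lower gene was Slc10a2. Cyp8b1, which makes cholic acid, went the other way at 631 to 1053 CPM against 203 to 287 (1.85, SE 0.29), and 2 genes were higher without the 3 libraries of negative slope, without WT NASH replicate 1 or without KO chow replicate 5, and 3 by DESeq2. In sterol efflux 3 of 10 were higher and 0 lower: Nceh1 (2.22, SE 0.26), which splits cholesterol esters, Lpcat3 (1.10, SE 0.15), a phospholipid acyltransferase, and the transporter gene Abcg5 (1.02, SE 0.21).

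Pericentral genes, which mark hepatocytes around the central vein, were lower in KO chow for 7 of 13, with 1 higher and a median of -1.44. Slc13a3, a dicarboxylate transporter, was at 0.911 to 7.23 CPM against 24.4 to 63.8 (-3.56, SE 0.49; edgeR adjusted p = 5.5e-05). Lect2 was at 12.3 to 57.5 against 131 to 632 CPM (-2.96, SE 0.53), Cyp1a2 at 13.5 to 89.9 against 216 to 342 (-2.34, SE 0.42) and Gulo, of vitamin C synthesis, at 66.1 to 251 against 319 to 587 (-1.44, SE 0.28). The 1 higher gene, Oat, ornithine aminotransferase, had a value of 1.11 (SE 0.31) and overlapping groups, and did not pass without the 3 libraries of negative slope. In bulk tissue, fewer cells of a type and less RNA per cell cannot be told apart. Of 17 xenobiotic enzymes 3 were lower and 0 higher, among them Cyp2c29 (-2.49, SE 0.57), with a median of -0.11. Without the 3 libraries of negative slope 5 were lower and 1 higher, with sex as a term 4 and 1, with sex and length slope 4 and 4, and by limma voom 9 and 1 with a median of -1.06. Without any 1 of KO chow replicates 1, 2 and 5, 1 was higher. The median was 0.12 with sex as a term.

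Amino acid and redox genes showed smaller groups. The shares over all genes were 9.45% higher and 7.87% lower. Of 18 genes of the urea cycle and amino acid breakdown 5 were higher in KO chow and 0 lower, with a median of 0.56; without WT NASH replicate 4, 8 were higher. Asl, argininosuccinate lyase, was at 1503, 1246, 1194, 1616 and 949 CPM against 330, 358, 418, 194 and 356 CPM, with no overlap (1.97, SE 0.32; edgeR adjusted p = 0.00022). Aass, of lysine breakdown, had a value of 2.17 (SE 0.36) and Agxt, a glyoxylate aminotransferase, of 1.18 (SE 0.26). Of 15 glutathione and NRF2 target genes 4 were higher and 4 lower: Srxn1, sulfiredoxin, was higher by 1.92 (SE 0.23), whereas Gstm3, a glutathione transferase, had a value of -3.18 (SE 0.47) and Gclc, of glutathione synthesis, of -1.12 (SE 0.27). The higher genes also included Gsta1, named after its value was seen. It was at 0.0495 to 1.33 CPM in KO chow and 0 to 0.297 in WT NASH, with overlap (edgeR adjusted p = 0.0499). It did not pass with sex as a term. Of the 15 genes, 2 higher and 3 lower passed with sex as a term, and without WT NASH replicate 5, 2 were higher. Of 17 unfolded protein and stress response genes 2 were lower and 0 higher, Chac1 (-2.04, SE 0.40) and Herpud1 (-1.60, SE 0.37), and without the 3 libraries of negative slope 6 were lower and 1 higher, and by limma voom 8 and 1. Without KO chow replicate 4 the count of lower genes was 5.

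The clock genes moved with the groups in both directions, 2 of 16 higher and 6 lower, with a median of 0.02; without WT NASH replicate 3, 4 were higher. Arntl, a core activator of the clock, was at 2.83, 4.02, 3.91, 4.14 and 2.07 CPM in KO chow and 28.1, 14.4, 12.8, 26.8 and 16.3 CPM in WT NASH, with no overlap (-2.53, SE 0.33; edgeR adjusted p = 3.8e-05). Its partner Npas2 was at 0.0726 to 0.603 CPM against 1.63 to 10.5 (-3.75, SE 0.68), and the repressor gene Nfil3 at 4.31 to 18.2 against 26.5 to 48.8 (-1.58, SE 0.30). Per3 (2.03, SE 0.55) and Bhlhe41 (2.10, SE 0.49) were higher in KO chow. The hour of collection is not given, and its part in the differences cannot be told apart from gene loss and diet. Of 12 genes listed under growth hormone and IGF, 4 were lower and 2 higher, and the lower genes included the adipokine gene Serpina12. The receptor gene Ghr had a value of -1.42 (SE 0.24) and Igfbp2 of 1.64 (SE 0.45). Igfbp2 did not pass without the 3 libraries of negative slope. With sex as a term 3 of the 12 were lower and 1 higher. Igfbp1, which rises in fasting, was at 184 to 852 against 53.3 to 173 CPM (2.12, SE 0.66; edgeR adjusted p = 0.03). It did not pass with sex as a term, or without any 1 of WT NASH replicates 1 and 2 and KO chow replicates 2 and 4 (highest adjusted p = 0.077).

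Of 18 interferon response genes 5 were lower in KO chow and 0 higher, beside 7.87% of all genes lower, with a median of -0.78. The count was 15 by limma voom, 3 without any 1 of WT NASH replicates 3 and 5 and KO chow replicates 1 and 2, and 0 within females, where the median was -0.34. Isg15, a ubiquitin-like protein, was at 2.64, 2.85, 6.09, 6.53 and 7.53 CPM against 12, 13.9, 16.5, 13.1 and 16.4 CPM, with no overlap (-1.49, SE 0.27; edgeR adjusted p = 0.00055). Of 19 acute phase and complement genes 3 were lower and 0 higher, with a median of -1.09, and limma voom called 8 lower and 1 higher. Without KO chow replicate 5 the count was 7 and without WT NASH replicate 2 it was 5, whereas within females it was 0 and the median 0.04. The median was -0.29 without WT NASH replicate 4. C4b had a value of -1.24 (SE 0.25), and C3 of -1.20 (SE 0.34), without passing when sex was a term or WT NASH replicate 1 was left out (adjusted p = 0.053). Of 9 antigen presentation genes the 1 lower was B2m (-1.31, SE 0.43; edgeR adjusted p = 0.038), which did not pass without any 1 of WT NASH replicates 2, 4 and 5 and KO chow replicates 1 to 4 (highest adjusted p = 0.14).

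Of 17 inflammation genes 1 was higher and 1 lower, beside 9.45% and 7.87% of all genes. The higher was Cd14, the lipopolysaccharide co-receptor, at 9.46 to 65.6 against 2.85 to 8.78 CPM (2.57, SE 0.63). The chemokine gene Ccl5 was the lower, at 0.684 to 3.92 against 4.66 to 9.1 CPM (-1.30, SE 0.43; edgeR adjusted p = 0.04). Ccl5 did not pass with sex as a term, without the 3 libraries of negative slope, or without any 1 of WT NASH replicates 1, 2 and 5 and KO chow replicates 1, 2 and 5 (highest adjusted p = 0.092). Of 22 matrix and fibrosis genes 1 was higher and 3 lower, beside the same shares of all genes, with a median of -0.13. With sex as a term 1 was lower. Fn1, fibronectin, had a value of -1.26 (SE 0.35) and Loxl1, which crosslinks matrix, of -1.33 (SE 0.34), and neither passed without the 3 libraries of negative slope, where 0 genes of the list were lower. Col4a1, of basement membranes, was at 30.8 to 111 against 26.4 to 33.4 CPM (1.09, SE 0.33), with overlap, and did not pass with sex as a term or without any 1 of WT NASH replicates 2, 3 and 5 and KO chow replicates 1 and 2 (highest adjusted p = 0.11). The remaining lower gene was Col6a3 (-1.11), named after its value was seen.

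In growth signalling, 2 of 15 PDGF and PI3K genes were higher and 3 lower, beside 9.45% and 7.87% of all genes, with a median of -0.05. The regulatory subunit gene Pik3r1 was at 28 to 49.3 against 52.5 to 115 CPM (-1.33, SE 0.24; edgeR adjusted p = 0.00077). Pdgfa, a platelet-derived growth factor ligand, was at 4.21 to 8.14 against 1.16 to 4.85 CPM (1.17, SE 0.31), with overlap. Of 16 cell cycle genes 3 were higher and 1 lower, and without the 3 libraries of negative slope 3 and 2; without KO chow replicate 5, 2 were lower. The 1 lower, Cdkn1a, which encodes the cell cycle inhibitor p21, was at 3.94, 11.5, 1.49, 2.69 and 2.43 CPM in KO chow and 54.3, 14.7, 26.3, 10.4 and 44.7 CPM in WT NASH (-2.76, SE 0.59); KO chow replicate 2 exceeded WT NASH replicate 4. Mcm2 (2.05, SE 0.44) and Mcm5 (2.56, SE 0.63), of the replicative helicase, were highest in KO chow replicates 1 and 2, and Mcm5 did not pass with sex as a term. Of 14 iron and heme genes 2 were higher and 2 lower (4 lower without KO chow replicate 3), with the transferrin gene Trf at -1.27 (SE 0.29), its receptor gene Tfrc at 1.30 (SE 0.35), and Alas1, which starts heme synthesis, at 1.25 (SE 0.37). Alas1 did not pass without WT NASH replicate 2 or KO chow replicate 1 (highest adjusted p = 0.061).

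Markers of liver cell types were read in the same libraries, where 9.45% of all genes were higher in KO chow and 7.87% lower. Of 7 hepatocyte markers 2 were lower, among them the transcription factor gene Hnf4a (-1.12, SE 0.25; edgeR adjusted p = 0.0037), and the list summed to 47169 to 114870 CPM in KO chow and 56501 to 110318 in WT NASH. Of 11 Kupffer cell and 12 stellate cell markers 0 passed by edgeR, DESeq2 or limma voom, and 0 had an unadjusted p under 0.05, with sums of 537 to 1900 against 516 to 1538 CPM and of 286 to 1228 against 303 to 839 CPM. Clec4f (0.23), Cd5l (0.63) and Dcn (0.42) were among them. Of 10 lipid-associated macrophage markers 2 were higher, Gpnmb (2.41, SE 0.74) and Ctsd (0.80, SE 0.25). Gpnmb did not pass without any 1 of WT NASH replicates 1, 2, 3 and 5 and KO chow replicate 2, and Ctsd not with sex as a term, nor without any 1 of those 4 WT NASH libraries or KO chow replicates 4 and 5 (highest adjusted p = 0.12 and 0.075).

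Of 9 sinusoidal endothelium markers 2 were higher, Kdr (0.81, SE 0.19) and Lyve1 (1.26, SE 0.36). Lyve1 did not pass with sex as a term, or without WT NASH replicate 1 or 2 or KO chow replicate 2 (highest adjusted p = 0.054). Of 5 cholangiocyte markers Sox9 was lower, at 0.363 to 1.89 against 4 to 6.35 CPM (-2.46, SE 0.45), while Cldn7 had at most 2 reads a library. Cd3e was lower among 8 T and NK cell markers (-1.47, SE 0.48; edgeR adjusted p = 0.036), at no more than 1.78 CPM in any library. Its call was lost with sex as a term, and without any 1 of WT NASH replicates 1 to 3 and KO chow replicates 1, 2, 4 and 5 (highest adjusted p = 0.13). Of 5 B cell markers 0 passed by edgeR, 2 had an unadjusted p under 0.05, and DESeq2 and limma voom each called 1; of 4 neutrophil markers 0 passed by any of the 3 tools or at an unadjusted p under 0.05. Red blood cell markers were higher for 2 of 5, with Hbb-bs at 34.3 to 93.7 against 8.25 to 16.6 CPM (2.27, SE 0.42). Of the pancreas and adipose tissue lists, Cela1 (-2.70, SE 0.59), Car3 (-3.005, SE 0.58) and Cfd passed, while Prss2, Amy2a5 and Lep were at 0 in all 10 libraries. Cfd, at 0.149 to 5.08 CPM in KO chow and 0 in 4 WT NASH libraries, did not pass with sex as a term. The part of these cells in the gene lists above was not tested.

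**Figure D3:**
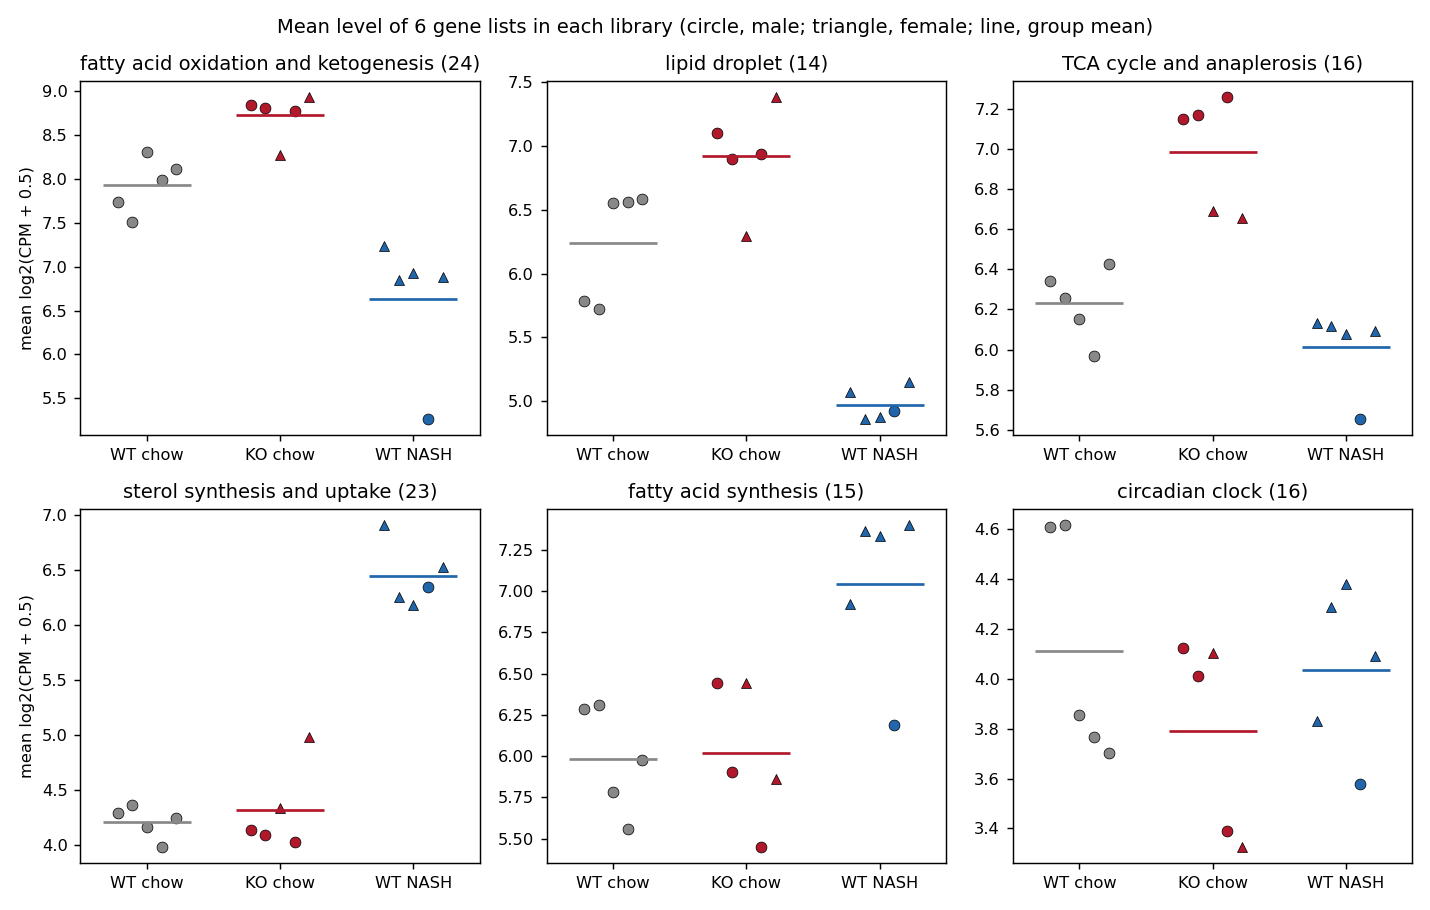
Mean log2(CPM + 0.5) of 6 gene lists in each library of WT chow, KO chow and WT NASH (5 a group; circles male, triangles female, lines group means). For fatty acid oxidation, KO chow libraries lie between 8.27 and 8.94 and WT NASH between 5.26 and 7.24, and for sterol synthesis between 4.02 and 4.98 and between 6.18 and 6.91.

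Each change was also set against the same 5 WT chow libraries, to show which side a difference came from. These share their controls, all of which read as male and 3 of which had a negative length slope, and sex was not a term in these 2 comparisons, so its part in their values was not tested. WT NASH, with 4 females of 5, differs most from them in sex, and KO chow holds 2 females. KO chow differed from WT chow in 798 genes (5.53%) and WT NASH in 857 (5.93%). For sterol synthesis and uptake, 19 of 23 genes were higher in WT NASH, and the list medians were 0.09 in KO chow and 2.03 in WT NASH. Fdps was 0.24 from WT chow in KO chow (adjusted p = 0.8) and 4.03 in WT NASH (edgeR adjusted p = 8.6e-05).

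For fatty acid oxidation, 5 of 24 genes were higher in KO chow and 10 lower in WT NASH. Ehhadh was 2.44 above WT chow in KO chow and fell by 2.56 in WT NASH. For lipid droplets, 3 of 14 were higher in KO chow and 6 lower in WT NASH, with Cidec at 2.81 and -5.54. Ppp1r3b had values of -1.89 and 2.30, opposite directions that passed in each comparison. Cd36 was 3.20 above WT chow in KO chow (edgeR adjusted p = 0.00081) and -0.02 from it in WT NASH (adjusted p = 0.98). For TCA cycle genes 5 of 16 were higher in KO chow and 1 lower in WT NASH. For fatty acid synthesis 2 of 15 were higher and 2 lower in KO chow and 5 higher in WT NASH. For bile acids 4 of 18 were lower in KO chow and 1 in WT NASH. Of 22 matrix genes 2 were higher in KO chow and 3 in WT NASH. Over all genes 5.53% passed in KO chow and 5.93% in WT NASH, in either direction.

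**Figure D4:**
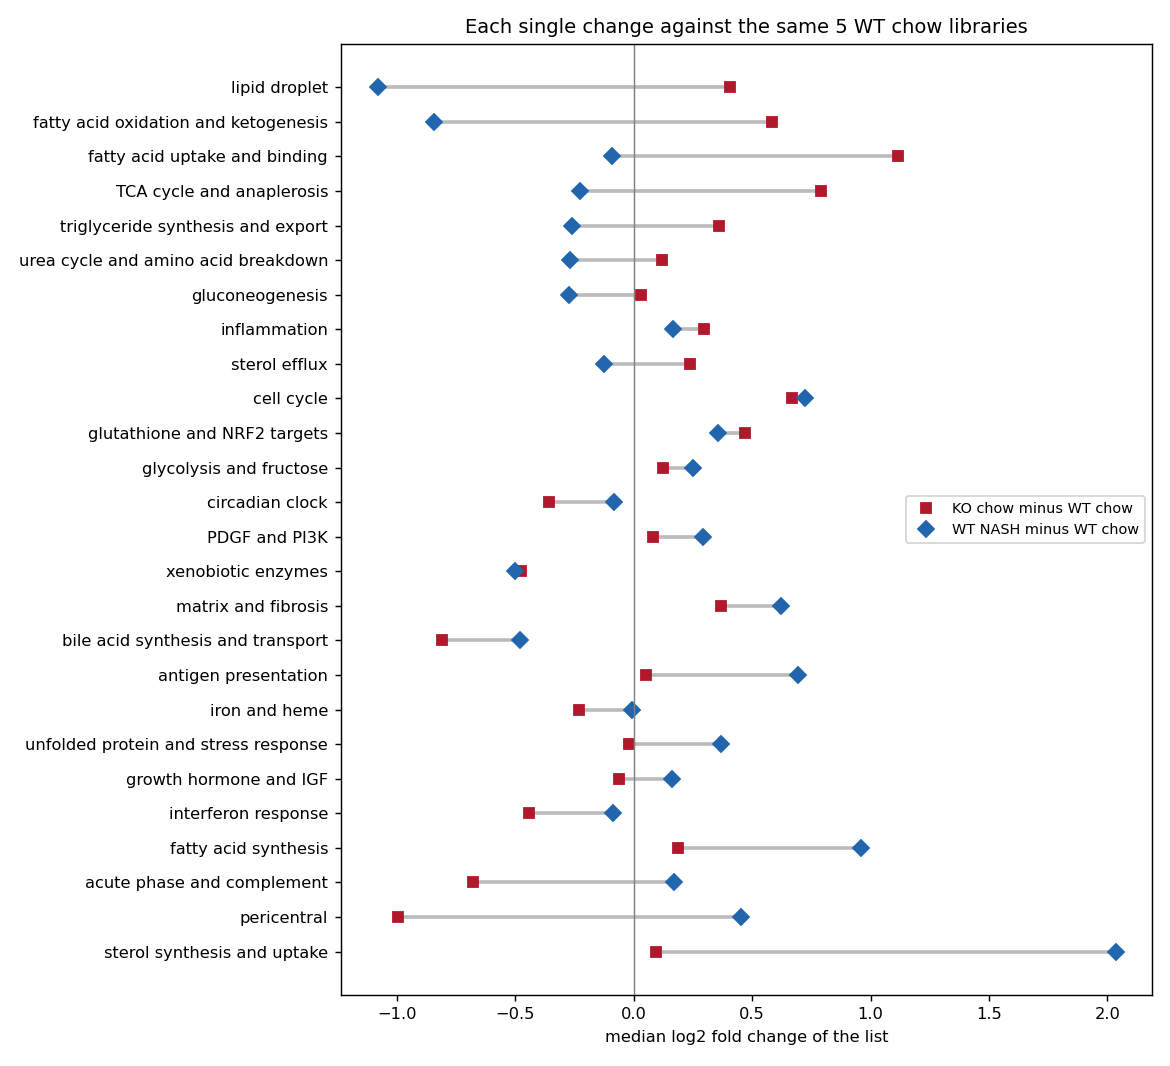
Median log2 fold change of 26 gene lists against the same 5 WT chow libraries, for KO chow (squares) and WT NASH (diamonds). The sterol list has medians of 0.09 and 2.03, and the fatty acid oxidation list of 0.59 and -0.84.

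Within females, 2 KO chow and 4 WT NASH libraries, 648 of 15205 genes tested passed, 389 higher in KO chow and 259 lower. Among the 2500 were 569 of them. The lists held 9 of 23 sterol genes lower, 12 of 24 oxidation genes higher and 7 lipid droplet genes higher. Cidec had a value of 7.88 in females, Ehhadh of 4.44 and Fdps of -3.49. Within males the WT NASH side is 1 library, replicate 4, which is assumed to vary like the other groups and is also 1 of the 3 of negative slope, so these values compare 3 KO chow libraries with that library. There 1780 genes passed, 847 of them among the 2500, and 36.5% of the 1780 were higher in KO chow, against 54.6% of the 2500. Of 15 female-biased liver genes 2 were higher in KO chow, 1 of them Cyp4a14, with sums of 11400 to 32158 CPM in KO chow and 43.1 to 7516 in WT NASH. Of 19 male-biased genes 1 was higher and 3 lower, with sums of 305 to 3842 and 360 to 94071 CPM. Fitting sex as a term gave 4 female-biased genes higher, and 1 male-biased gene higher and 6 lower. Without WT NASH replicate 4, 10 male-biased genes were higher and 1 lower, and without the 3 libraries of negative slope 12 and 0. Moxd1 (-8.03) and Hsd3b5 (-6.97) passed with WT NASH replicate 4 in the group, at 380 and 322 CPM there. The other 4 WT NASH libraries were at 0.129 CPM at most. Without replicate 4 the fitted values, which then depend on the prior count, were 5.37 and 2.61 and did not pass (edgeR adjusted p = 0.12 and 0.22). In KO chow, with 3 males, Moxd1 was at 0 to 1.21 CPM and Hsd3b5 at 0 to 1.30 CPM. The 5 WT chow libraries, all male, were at 23.8 to 73.1 and 25.5 to 113 CPM. KO chow minus WT chow was -7.27 and -6.90 (edgeR adjusted p = 0.044 and 0.043). With sex as a term KO chow minus WT NASH was -9.60 and -8.32, and both passed. Serpina1e (-5.55, SE 1.29), at 6182 CPM in that library against 49.1 to 463, did not pass without the 3 libraries of negative slope, and Cyp4a12b (5.03, SE 1.67; edgeR adjusted p = 0.042) did not pass without any 1 of WT NASH replicates 1, 2, 3 and 5 and KO chow replicates 1, 2 and 4 (highest adjusted p = 0.091).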

How the data were processed

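Liver RNA of 20 mice, as numbered in the labels, was sequenced, 5 in each of 4 groups. Reads were aligned with HISAT2 2.0.4 to GRCm38, per the submitters' processing notes. The authors deposited read counts per gene, with no normalization; the counting program, annotation and strand setting are not stated in the labels or the file. The table marks the NASH diet as HFD. Genes with a row numbered 46095, and 14440 passed edgeR's filterByExpr with a minimum count of 10. Counts were scaled by TMM and tested with edgeR 4.0.16 (quasi-likelihood F test, R 4.3.3) over all 20 libraries, with Benjamini-Hochberg adjustment and a threshold of 0.05; CPM use TMM-scaled totals. Sex was read from 4 Y-linked genes (at least 100 counts for male), and the length slope used GENCODE gene lengths matched for 93.5% of tested genes. In counts simulated for this comparison, 86.5% of 200 genes changed 4-fold were recovered and 4.42% of calls were false, over 14213 genes. The simulated KO chow and WT NASH libraries held no difference by sex or length slope. These shares therefore do not give the false share of the real calls.

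Named genes were Pck1; the 10 highest and 10 lowest log2 fold changes among genes that passed with and without sex and slope as terms, with at least 5 CPM on average and ranges apart; and up to 4 called members of each list in each direction. Of 150 genes that this rule names, 115 are described, and some are not reported here. The members and lists were chosen with earlier results of these data known. Alternatives were RLE scaling, DESeq2 1.42.0, limma 3.58.1 voom, other filters, terms and groups, each library left out, and, added after seeing the data, the 3 libraries of negative slope left out and KO NASH replicates 1 and 5 summed. The total number of alternatives was 25. Replicates are numbered as mice, and the p-values measure the spread between the numbered libraries. The counts of KO NASH replicates 1 and 5 were closer than those of any pair within KO chow or WT NASH. Their chi-square per gene was 7.98 against 22.0 to 455. Whether these KO NASH libraries are separate animals was not tested, and both entered the estimate of the spread.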

Additional observations from a re-analysis of the deposited data

Results flagged for a closer look

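Within the 5 libraries of a group, a value was listed when its gap to the nearest other value was too large a share of the group's range by Dixon's test. In all, 35 of 230 sets of 5 values were listed. The test lists about 1 in 20 sets of independent, normally distributed values. These sets were untransformed CPM of named genes in the same libraries, so that rate is not their chance rate. WT NASH replicate 4 accounted for 24 of the 35, KO chow replicate 5 for 5 and KO chow replicate 2 for 3. WT NASH replicate 4 is the only male, the shallowest and the only one of negative length slope in its group, and which of these moves with its values was not tested.

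In WT NASH replicate 4 the CPM was above the other 4 libraries for Cgref1 (1.18), Serpina12 (290.1), Selenbp2 (1028), Enho (118), Cyp2c70 (3650), Slc10a2 (496), Nr0b2 (79.3), Cyp2c29 (8084), Gulo (587), Fh1 (331), Gpnmb (2.06), Ctsd (435), Cela1 (107), Cyp4a12b (13.4), Serpina1e (6182), Moxd1 (380.007) and Hsd3b5 (322). It was below them for Tkfc (86.9), Mlxipl (93.6), Slc27a1 (2.35), Dgat2 (216), Nceh1 (19.0), Pik3r1 (52.5) and Idh3a (16.3).

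KO chow replicate 5 was above its group for Cgref1 (88.0 CPM), Ly6d (697), Serpina12 (2.25), Slc10a2 (15.6) and Mogat1 (9.66). KO chow replicate 2 was below its group for Pmvk (6.59) and above it for Cdkn1a (11.5) and Moxd1 (1.21). KO chow replicate 4 was above its group for Herpud1 (483). WT NASH replicate 2 was above for Mogat1 (0.593) and WT NASH replicate 1 for Cfd (0.0646, the others at 0).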

How the results depend on the processing

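Against 2500 genes called, limma voom with quality weights called 4959, length slope as a term 4797, sex and length slope as terms 4239, the 2 groups fitted alone 1638, females alone 648, and a minimum of 2-fold 1645. Length slope as a term left 45.9% of calls higher in KO chow and sex with slope 45.0%, against 54.6%. DESeq2 called 3159, RLE scaling 2529, no filter 2188, a mean of at least 5 CPM 1919 and KO NASH replicates 1 and 5 summed 2426. Leaving out 1 library gave 1916 to 2752. Pck1 stayed below zero under every alternative run and lost its call in the males alone (-1.52), where WT NASH is 1 library. Among the described genes, 41 of 113 lost their call within females, with 2 KO chow and 4 WT NASH libraries. These included Cyp1a2 and Gulo. With sex as a term 12 of 115 lost it. Moxd1 changed sign with voom (1.13), without WT NASH replicate 4 (5.37) and without the 3 libraries of negative slope (5.99), and Hsd3b5 likewise (2.32, 2.61 and 3.13); none of these 6 values passed. Leaving out 1 library moved them between -13.3 and 5.37 and between -7.71 and 2.61. Same-numbered KO chow and WT NASH libraries correlated between -0.125 and 0.383 in their deviations, so the numbers were not taken as pairs; with the replicate block 2589 genes passed. Genes near 1 CPM rest on about 6.80 to 24.9 reads a library, and the 1 male WT NASH library limits any separation of sex, slope and diet.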
